A study of Homo sapiens with 30 samples.

Results

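The genes described here are 49 human DNA replication and S-phase genes that were listed by name, from the origin recognition complex to the sliding clamp PCNA and its partner PCLAF. All 49 were among the 27630 genes of the deposited count tables, and all 49 were among the 16504 genes that passed the filter on low counts. By name they are subunits and cofactors of the replication machinery, enzymes that supply its nucleotides and S-phase regulators. Copying DNA begins when the origin recognition complex, CDC6 and CDT1 load the MCM helicase onto origins in G1. In S phase CDC45 and the GINS complex turn the helicase on, polymerase alpha with primase starts each strand, and polymerases epsilon and delta extend the strands while held to DNA by the PCNA ring. Most of these genes are switched on together late in G1 by E2F transcription factors, and their messenger RNAs are translated in the cytosol while the proteins work in the nucleus.

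RNA was measured in 8 sequencing libraries of HEK293FT, a human embryonic kidney line transformed with adenoviral genes that also carries the large T antigen of a simian virus. The 4 groups of 2 libraries were a nuclear fraction, a cytosolic fraction, RNA recovered at the nuclear lamina under native conditions and RNA recovered there after fixation with paraformaldehyde (PFA). All 4 groups came from asynchronous cells transfected with the same APEX2 lamin-b1 construct, a peroxidase fused to a lamin that tags molecules close to the nuclear lamina. The labels name no unlabelled or untransfected library, so the fractions are the only background, and they do not say whether replicates came from separate cultures, so p-values measure only the spread between these libraries.

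Total counts ran from 2321291 in PFA replicate 2 to 8557777 in native replicate 1, and single members held between 31 and 4855 counts in a library. Summed HEK293 markers (PAX2, NEFL, NEFM and NEFH) were at 56.2 to 67.4 normalised CPM (counts scaled to library size) in the nuclear, 248 to 260.0 in the cytosolic, 180 to 265 in the native and 96.7 to 128 in the PFA libraries. NEFL gave most of this sum, with group means of 39.8 to 202 CPM. PAX2 (2.13 to 4.88) and NEFH (1.34 to 3.90) were low, and PAX2 had 0 counts in cytosolic replicate 2. None of the 4 was at 0 in both libraries of a group. Of the 6 erythroid markers of K562, another line of the series, 4 were at 0 in each group. The erythroid TAL1, with group means of 1.90 to 4.30 CPM, was about as high as PAX2 and NEFH. Summed colon markers of HCT116, a further line of the series (CDX2, VIL1, CDH17 and LGALS4), were at 21.5 to 30.8 CPM in the nuclear, 42.1 to 48.8 in the cytosolic, 33.8 to 37.6 in the native and 43.8 to 48.2 in the PFA libraries. CDX2, a homeobox factor, gave most of this sum outside the nuclear fraction, with 32.1 to 48.4 CPM there against 9.34 and 15.6 in the nuclear libraries. The only one of the 4 at 0 in both libraries of a group was CDH17, in the cytosol. What part other cells may have in any result was not tested. The PFA replicates stood apart from each other. Summed nuclear RNA markers (MALAT1, NEAT1 and KCNQ1OT1) were at 712 CPM in PFA replicate 1 and 4106 in PFA replicate 2, against 13761 to 22811 in the nuclear and 970 to 1297 in the cytosolic libraries, and at 6343 to 13569 at the native lamina. Over the 49 members, log2 CPM correlated at 0.920 between the PFA replicates and at 0.951 between PFA replicate 1 and cytosolic replicate 1. PFA results are therefore also given without each of these libraries.

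The first comparison set the nuclear against the cytosolic fraction. Replication messages were mostly the lower in the nucleus. Of the 49 genes, 23 fell and 4 rose in the nuclear relative to the cytosolic libraries (quasi-likelihood test of edgeR, adjusted p under 0.05 over all genes), which is 46.9% and 8.16% of the members. Among all genes tested 21.2% were lower and 26.1% were higher, so the members' share of lower calls lay above the background and their share of higher calls below it. The median log2 fold change was -0.62 over the members and 0.13 over all genes tested. Both nuclear libraries lay below both cytosolic libraries for 32 members (65.3%, against 35.4% of all genes tested) and above them for 8 (16.3%, against 42.5%). Members together took 0.320% and 0.397% of counts in the nuclear libraries and 0.567% and 0.596% in the cytosolic ones. In bulk RNA, fewer cells of a type and less RNA per cell cannot be told apart, and each value is a share of its own library.

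**Figure D1:**
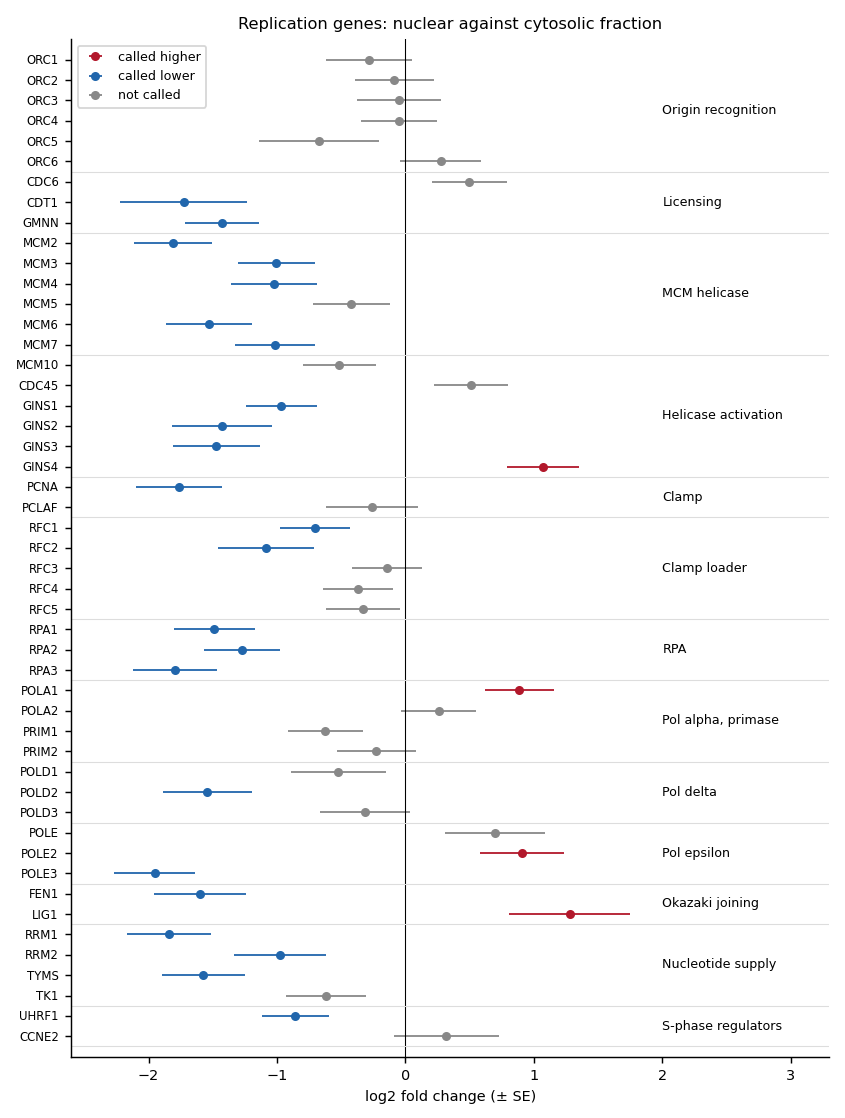
Log2 fold change of nuclear against cytosolic RNA for the 49 replication genes (x axis), ordered by role from origin recognition at the top, with bars of 1 standard error. The 23 genes called lower include all 3 RPA subunits and 5 of 6 MCM subunits, while the 4 called higher (GINS4, POLA1, POLE2 and LIG1) each stand in a role group with members on the other side of 0.

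Origin recognition and licensing differed. Of the 6 ORC subunits, which mark origins, 0 were called by edgeR, by DESeq2 or at an unadjusted p under 0.05, and their median log2 fold change was -0.07. ORC5, the lowest, stood at 13.5 and 8.07 CPM in the nuclear and 17.2 and 17.3 in the cytosolic libraries (log2 fold change -0.67, SE 0.47, edgeR adjusted p 0.248). ORC6, the highest, stood at 35.6 and 54.3 CPM against 34.2 and 40.2 (0.27, SE 0.32), so its groups overlapped. CDT1, the loader that brings MCM to origins, fell: it had 46.5 and 133 CPM in the nuclear and 159 and 433 in the cytosolic libraries (log2 fold change -1.72, SE 0.49, edgeR adjusted p 0.0126). Its replicates lay far apart in both fractions, though the highest nuclear value was below the lowest cytosolic one. GMNN, geminin, the inhibitor of CDT1, also fell (-1.43, SE 0.29), from 67.0 and 65.3 CPM in the cytosol to 20.7 and 28.5 in the nucleus. CDC6, the ATPase that works with ORC, had a log2 fold change of 0.50 and was not called.

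Of the 6 subunits of the MCM helicase ring, 5 fell in the nucleus. MCM2 (hg19 chromosome 3, 127317200 to 127341278, plus strand) had 125 and 133 CPM in the nuclear and 395 and 512 in the cytosolic libraries (log2 fold change -1.81, SE 0.30, edgeR adjusted p 0.00102). The gap between its groups was wider than the spread within either. MCM6 had -1.53, MCM4 -1.02, and MCM7 and MCM3 -1.01 each. MCM5 was the exception, with 63.5 and 80.9 CPM against 87.4 and 106 (-0.42, SE 0.30, edgeR adjusted p 0.262). The call of MCM7 stands beside a shared exon stretch: 8.95% of its exonic bases overlap AP4M1 on the other strand, and the counting ignored strand.

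Helicase activators split within a single complex. The 4 GINS proteins form 1 complex with 1 copy of each, yet GINS1 (log2 fold change -0.97), GINS2 (-1.43) and GINS3 (-1.47) fell while GINS4 rose. GINS3 stood at 19.3 and 24.1 CPM in the nuclear and 54.0 and 66.4 in the cytosolic libraries. GINS4 stood at 60.2 and 68.9 CPM against 36.2 and 25.0 (1.07, SE 0.28, edgeR adjusted p 0.00819). Neither gene's groups overlapped. CDC45, which joins GINS on the helicase, had 0.51 and MCM10, an activator of the loaded helicase, had -0.51, and neither was called.

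The clamp and its partner also parted. PCNA (hg19 chromosome 20, 5095599 to 5107268, minus strand) had 60.2 and 106 CPM in the nuclear and 237 and 325 in the cytosolic libraries, and fell by 1.76 on the log2 scale (SE 0.34, edgeR adjusted p 0.00167). PCLAF, a small protein that binds PCNA (hg19 chromosome 15, 64657211 to 64679886, minus strand), had 25.1 and 33.3 CPM against 25.9 and 44.2. The PCLAF groups overlapped (log2 fold change -0.26, SE 0.36, edgeR adjusted p 0.572), and its sign turned to 0.01 with upper-quartile scaling and to 0.17 without cytosolic replicate 2. Among the 5 subunits of the clamp loader, which opens PCNA rings, RFC2 (-1.08) and RFC1 (-0.70) fell. RFC2 stood at 29.6 and 49.7 CPM in the nuclear and 77.8 and 90.1 in the cytosolic libraries, and RFC3, the least changed, at 90.7 and 82.3 against 93.1 and 98.1 (-0.14, not called). All 3 subunits of RPA, which coats single-stranded DNA, fell: RPA1 by 1.49, RPA2 by 1.27 and RPA3 by 1.79 on the log2 scale. RPA3 (hg19 chromosome 7, 7676194 to 7758238, minus strand) stood at 12.0 and 15.1 CPM in the nucleus and 45.2 and 48.8 in the cytosol (SE 0.33, edgeR adjusted p 0.00142), with 9.42% of its exonic bases shared with UMAD1.

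Polymerase subunits went both ways. POLA1, the catalytic subunit of polymerase alpha (hg19 chromosome X, 24711950 to 25015102, plus strand), rose in the nucleus, with 170.3 and 208 CPM against 99.7 and 105 (log2 fold change 0.89, SE 0.27, edgeR adjusted p 0.0172). PRIM1, the catalytic subunit of primase in the same complex, had 26.1 and 34.9 CPM against 39.7 and 54.6 (-0.62, edgeR adjusted p 0.0923) and was not called. Of polymerase delta, the accessory subunit POLD2 fell, with 41.7 and 67.7 CPM against 153 and 165 (-1.54, SE 0.35), while the catalytic POLD1 (-0.52) and POLD3 (-0.31) were not called. In polymerase epsilon, POLE3 (hg19 chromosome 9, 116169518 to 116173029, minus strand), which pairs with POLE4, had the largest fall of all 49, from 136 and 175 CPM in the cytosol to 33.5 and 46.9 in the nucleus (-1.95, SE 0.32, edgeR adjusted p 0.000893). POLE2, another accessory subunit, rose (0.91, SE 0.33, edgeR adjusted p 0.0356), and the catalytic POLE had 0.70 and was not called.

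Okazaki fragments are trimmed by the nuclease FEN1 and joined by DNA ligase 1, LIG1. FEN1 fell, with 35.6 and 67.5 CPM in the nuclear and 129 and 183 in the cytosolic libraries (log2 fold change -1.60, SE 0.36). LIG1 (hg19 chromosome 19, 48618702 to 48673860, minus strand) rose, with 70.3 and 133 CPM against 27.0 and 57.3 (1.28, SE 0.47, edgeR adjusted p 0.0399). Its groups did not overlap, but its nuclear replicates differed about as much as its group means. Of the enzymes that supply nucleotides, both subunits of ribonucleotide reductase fell (RRM1 -1.84, RRM2 -0.98), as did thymidylate synthase, TYMS (-1.57). RRM1 stood at 73.9 and 100.2 CPM in the nucleus and 236 and 387 in the cytosol, and thymidine kinase, TK1, at 68.5 and 117 against 120.5 and 165 (-0.62, not called). UHRF1, which carries DNA methylation through replication, fell from 74.1 and 65.1 CPM to 38.0 and 38.8 (-0.86, SE 0.26), and CCNE2, cyclin E2, had 0.32 and was not called.

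The number of calls depended on single libraries and the split on scaling: 12 of the 49 genes were called without nuclear replicate 1 and 15 without cytosolic replicate 2, and upper-quartile factors, which shifted all genes by 0.27, gave 6 higher and 18 lower. In 16 alternative settings, 9 of the 27 calls were kept throughout, namely MCM2, MCM6, GMNN, PCNA, RPA1, RPA3, POLE3, RRM1 and TYMS.

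Pairs of genes whose proteins work together were also compared as ratios of read counts within each library, which needs no scaling between libraries. The pairs were chosen after their values were seen, so the ratios are a description. GINS4 had 3.28 and 2.32 reads for each read of GINS2 in the nuclear libraries and 0.612 and 0.355 in the cytosolic ones. For POLE2 against POLE3 the ratios were 0.642 and 0.553 in the nucleus against 0.0953 and 0.0700 in the cytosol. For LIG1 against FEN1 they were 1.97 and 1.97 against 0.209 and 0.313. In each of these pairs the messages stood at other proportions in the 2 fractions in every library. The native lamina lay between the fractions for GINS4 over GINS2 (1.13 and 2.11) and for LIG1 over FEN1 (0.597 and 1.54). PCLAF had 0.416 and 0.315 reads per PCNA read in the nucleus, 0.109 and 0.136 in the cytosol, 0.0650 and 0.133 at the native and 0.116 and 0.0763 at the PFA lamina.

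**Figure D2:**
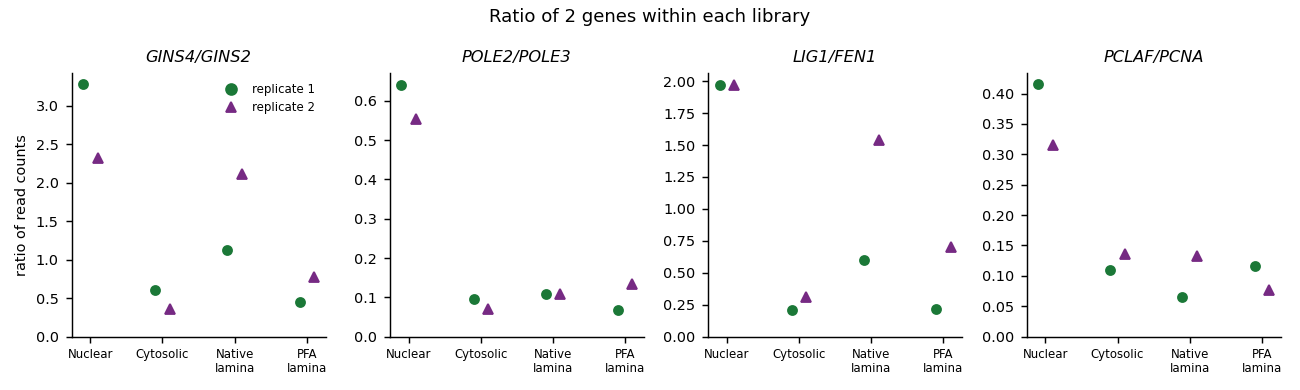
Ratio of the read counts of 2 genes (y axis, linear from 0) in each of the 8 libraries, with circles for replicate 1 and triangles for replicate 2 of the 4 groups on the x axis. In all 4 pairs shown both nuclear ratios lie above both cytosolic ratios, for example 0.642 and 0.553 against 0.0953 and 0.0700 for POLE2 over POLE3.

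Words of the E2F type were counted in the promoters of these genes, taken from RefSeq on GRCh38.p14 as 250 bases before to 50 after the annotated start. A promoter was found for 42 of the 49 members (not for MCM4, MCM5, GINS4, RPA2, RPA3, POLD3 or CCNE2). The search, on both strands, was for 3 spellings of the E2F-type site. The first was TTCCCGC. The second spelling, TTGGCGC, and the third, which was TTCGCGC, can overlap each other. At least 1 word stood in 27 of 42 member promoters (64.3%), against 17.2% of the 11820 promoters of tested genes and 11.0% of all 35116 promoters in the table. These shares take the first entry of each gene in the table. Of the 42 members 12 had further entries, and counting any entry 32 members (76.2%) and 20.6% of tested genes held a word. TTCCCGC was in 38.1% of member promoters and 9.87% of those of tested genes. Members of both directions held a word. The stretches below, with the matched words or their reverse complements in capitals, show 2 genes that fell in the nucleus (PCNA and MCM3), 2 that rose (LIG1 and POLA1) and PCLAF, whose window shown held none of the words although its other entry held one. Only bases before the start are printed, so further matches across or after the start in MCM3, LIG1 and POLA1 are not shown.
PCNA, chr20:5126660-5126696, minus strand: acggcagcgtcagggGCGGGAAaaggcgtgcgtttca
MCM3, chr6:52284744-52284930, minus strand: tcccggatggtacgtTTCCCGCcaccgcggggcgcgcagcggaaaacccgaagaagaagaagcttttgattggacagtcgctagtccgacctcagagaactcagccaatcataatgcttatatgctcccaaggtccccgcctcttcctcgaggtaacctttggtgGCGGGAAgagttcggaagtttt
LIG1, chr19:48170436-48170472, minus strand: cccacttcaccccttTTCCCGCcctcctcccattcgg
POLA1, chrX:24693766-24693819, plus strand: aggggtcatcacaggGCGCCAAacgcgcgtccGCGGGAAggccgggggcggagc
PCLAF, chr15:64387688-64387787, minus strand: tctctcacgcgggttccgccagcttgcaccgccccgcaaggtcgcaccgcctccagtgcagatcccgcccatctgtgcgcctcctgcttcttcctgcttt

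Fold changes between the fractions were set beside the words. Over the 27 members with a word in the first entry the log2 fold change of nuclear against cytosolic RNA ran from -1.84 to 1.28 with a median of -0.86, and over the 15 without one from -1.95 to 0.51 with a median of -0.52. With any entry counted, GMNN, PCLAF, POLE3, RRM2 and TK1 join those with a word, and the ranges are -1.95 to 1.28 with a median of -0.91 over 32 and -1.60 to 0.51 with a median of -0.37 over 10. Both signs of the fold change occurred with and without a word by either count, but positive values without a word belonged to genes that were not called. Of the genes called higher in the nucleus, POLA1, POLE2 and LIG1 held a word, and no promoter was found for GINS4. A match describes letters in a window and is neither a binding site nor a cause, and a window without a match says nothing of the factor.

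RNA recovered at the native lamina was set against the nuclear and then the cytosolic fraction. Against the nuclear fraction, 6 replication genes rose and 1 fell (edgeR adjusted p under 0.05), against a background of 3.87% of all genes tested that were higher and 3.44% that were lower. The members' median log2 fold change was 0.30, and that of all genes -0.07. The genes that rose were POLE3 (1.72), MCM2 (1.46), MCM3 (1.38), RFC1 (1.18), GMNN (1.12) and UHRF1 (0.98). PCLAF was the 1 that fell. The comparison of the fractions uses the same nuclear libraries, and there the 6 genes had -1.95, -1.81, -1.01, -0.70, -1.43 and -0.86 in this order.

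POLE3 had 144 and 121 CPM at the native lamina (SE 0.31, edgeR adjusted p 0.0129), near its cytosolic 136 and 175 and above its nuclear 33.5 and 46.9. MCM2 had 393 and 316 CPM at the native lamina (SE 0.30, edgeR adjusted p 0.0195), more than the nuclear 125 and 133 in both libraries. MCM3 (hg19 chromosome 6, 52128812 to 52149679) had 505 and 553 CPM at the native lamina, 175 and 232 in the nuclear and 382 and 435 in the cytosolic libraries, and so lay above all 4 fraction libraries. RFC1, with 164 and 208 CPM against 78.6 and 85.2 nuclear and 125 and 142 cytosolic, and MCM10, with 238 and 169 against 97.3 and 114 nuclear and 146 and 156 cytosolic, did so as well. These 3 genes were the members above all 4 fraction libraries (7.19% of all genes tested were), and none of them was called above the cytosolic fraction.

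Against the cytosolic fraction, 8 members fell at the native lamina and 0 rose by edgeR (1 higher and 14 lower at an unadjusted p under 0.05, and 13 called by DESeq2, 1 of them higher). Of all 16504 genes tested 6.77% were lower and 6.99% were higher by edgeR. At an unadjusted p under 0.05, 2829 of them were higher and 2401 lower, and DESeq2 called 1392 higher and 1424 lower. The median log2 fold change was -0.31 over the members and 0.10 over all genes. The genes that fell were RPA3 (-2.17), PCLAF (-1.61), RPA2 (-1.25), RRM1 (-1.24), PCNA (-1.20), POLD2 (-1.18), TYMS (-1.08) and TK1 (-1.05). They are the 2 small RPA subunits, the clamp and its partner, a polymerase delta subunit and 3 enzymes of nucleotide supply. Of the 6 MCM subunits 0 were among them, by edgeR, by DESeq2 or at an unadjusted p under 0.05, with a median of -0.16.

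RPA3 had 13.1 and 7.66 CPM at the native lamina (SE 0.33, edgeR adjusted p 0.00503), close to its nuclear 12.0 and 15.1 and far below its cytosolic 45.2 and 48.8. RPA2 had 40.0 and 28.1 CPM (SE 0.29, edgeR adjusted p 0.0174), against 30.0 and 37.1 nuclear and 80.8 and 81.6 cytosolic. RPA2 and RPA3 messages at the native lamina thus lay at nuclear levels, while POLE3 and MCM2 lay nearer cytosolic ones. PCNA had 142 and 103 CPM at the native lamina, between its nuclear 60.2 and 106 and its cytosolic 237 and 325 and overlapping the nuclear pair. RRM1 had 140.1 and 124 CPM and lay between the fractions in both libraries.

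**Figure D3:**
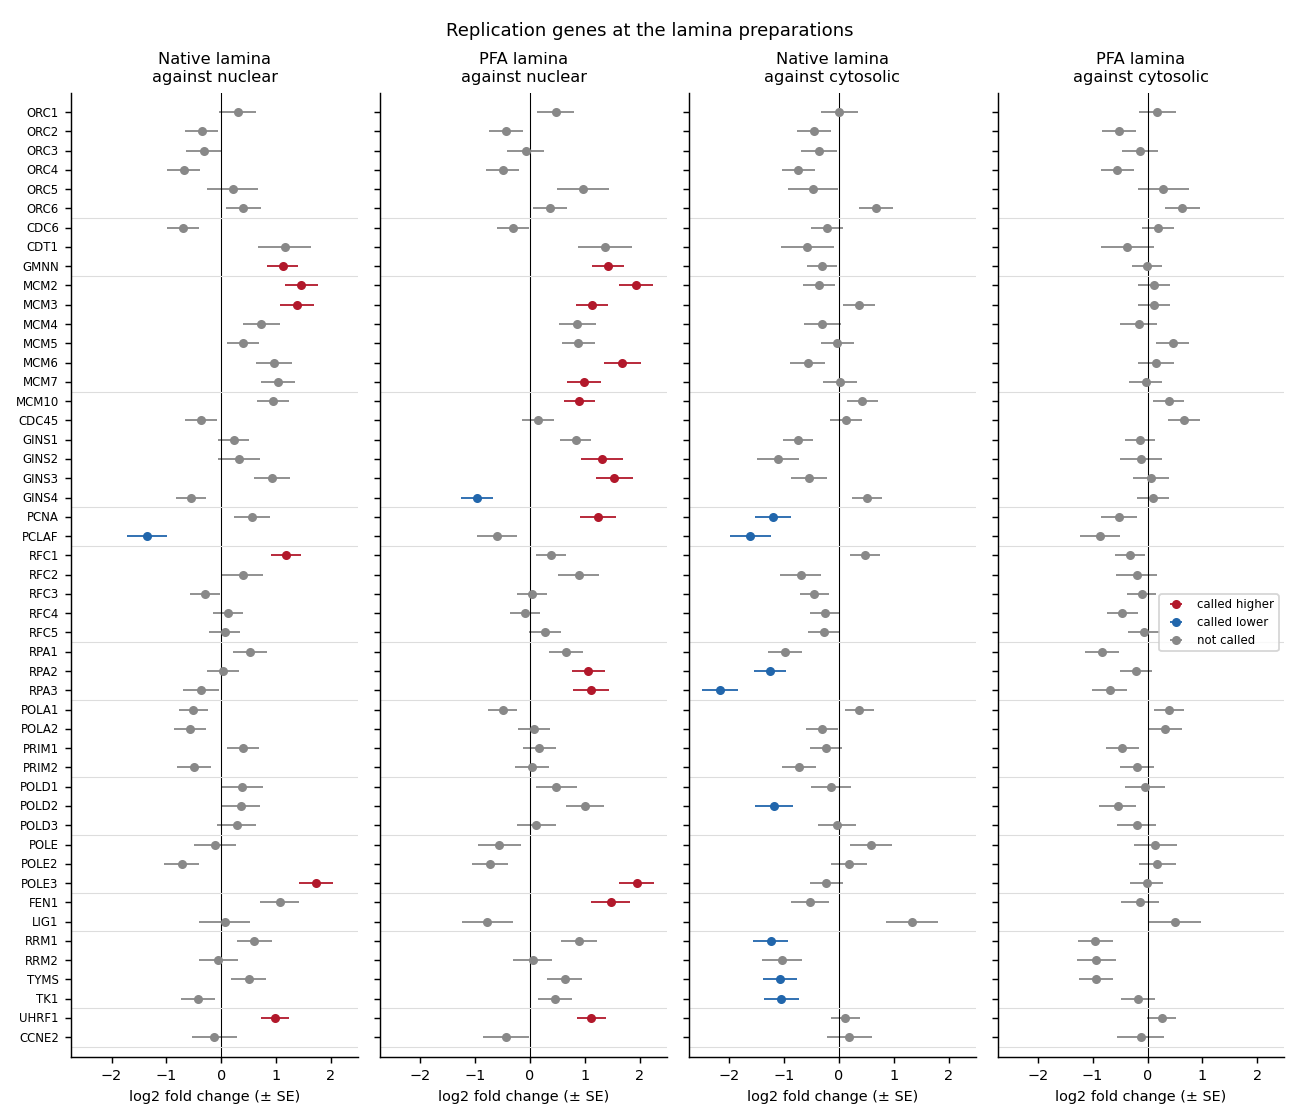
Log2 fold change with 1 standard error (x axis) of the 49 replication genes, in the order of roles used for the fractions, for each lamina preparation against the nuclear and the cytosolic fraction. Most points lie right of 0 against the nuclear fraction and left of it at the native lamina against the cytosolic fraction, and PCLAF is the gene called lower at the native lamina in both.

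PCLAF was the 1 member below both fractions at the native lamina, among 27 genes in all (0.164% of genes tested), and 0 members were above both fractions by edgeR, among 7 genes in all (0.0424%); DESeq2 gave 0 members above both as well, among 19 genes, and 0 were at an unadjusted p under 0.05. It had 9.25 and 13.7 CPM at the native lamina, from 89 and 93 reads, against 25.1 and 33.3 in the nuclear and 25.9 and 44.2 in the cytosolic libraries. Both native values lay below all 4 fraction values. At the PFA lamina 0 members were above both fractions and 0 below both by edgeR, at an unadjusted p under 0.05 or by DESeq2, against 0.0485% and 0.00606% of all genes tested by edgeR. At the native lamina the log2 fold change of PCLAF was -1.35 against the nuclear fraction (SE 0.37, edgeR adjusted p 0.0449). Against the cytosolic fraction it was -1.61 (SE 0.37, edgeR adjusted p 0.0162). The call against the nuclear fraction ended with total counts (edgeR adjusted p 0.0633), with length offsets (0.0540) and without any 1 of the 6 nuclear, cytosolic and native libraries, within a range of 0.00686 to 0.253 over 16 settings. The call against the cytosolic fraction also ended without either cytosolic or either native library, where the log2 fold change ran from -1.95 to -1.18. At the PFA lamina PCLAF had 23.1 and 14.7 CPM, from 125 and 40 reads. These values also lay below all 4 fraction values, but the log2 fold changes of -0.60 against the nuclear (edgeR adjusted p 0.26) and -0.86 against the cytosolic fraction (edgeR adjusted p 0.199) were not called.

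**Figure D4:**
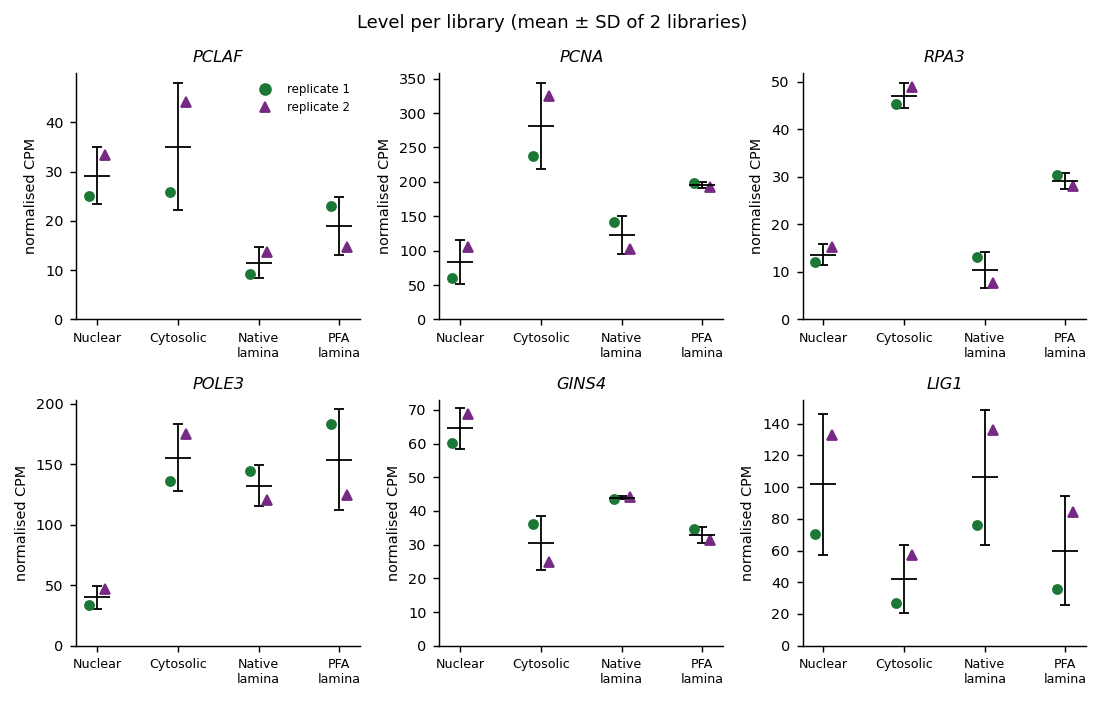
Normalised CPM (y axes, linear from 0) of 6 replication genes in the 8 libraries, with circles and triangles for replicates 1 and 2 and bars for the mean ± SD of the 2 libraries of each group. PCLAF is lowest at the native lamina, at 9.25 and 13.7, RPA3 is low in the nuclear and native libraries, and GINS4 and LIG1 are higher in the nuclear than in the cytosolic libraries.

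Other members lay below all 4 fraction libraries at the native lamina without a call. They were ORC2, ORC3, ORC4, PRIM2 and RFC3, which with PCLAF made 6 members, against 6.41% of all genes tested. ORC4 had 31.6 and 27.0 CPM at the native lamina against 51.7 and 42.8 in the nuclear and 55.2 and 42.5 in the cytosolic libraries (log2 fold changes -0.69 and -0.74). At the PFA lamina ORC2, ORC4 and PCLAF lay below all 4 fraction libraries (4.65% of all genes tested did) and MCM5, MCM10 and UHRF1 above them (6.7%).

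The calls at the native lamina depended on single libraries. Against the nuclear fraction 0 members were called when any 1 of the 2 nuclear and 2 native libraries was left out, 4 when cytosolic replicate 1 or 2 was, and 12 when PFA replicate 1 or 2 was. Against the cytosolic fraction 0 were called without cytosolic replicate 1, cytosolic replicate 2 or native replicate 2, 2 without native replicate 1, and 14 and 13 without PFA replicates 1 and 2. With total counts in place of TMM factors, all genes shifted by 0.28 and 0.29 on the log2 scale in these comparisons, and the members' calls became 13 higher and 0 lower against the nuclear and 2 higher and 3 lower against the cytosolic fraction. Length offsets gave 7 higher and 0 lower against the nuclear fraction.

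In the fit of all 8 libraries, more replication genes were called above the nuclear fraction at the PFA than at the native lamina (28.6% against 12.2%). The same held for all genes tested (9.63% against 3.87%). With only the 4 libraries compared in each fit, the order among the members was reversed. Then 4 members were higher at the PFA and 12 at the native lamina. The direct comparison of the 2 preparations called 0 members by edgeR. In the fit of all 8 libraries, 14 members rose and 1 fell at the PFA lamina (edgeR adjusted p under 0.05). These are 28.6% and 2.04% of the members, against 9.63% and 7.81% of all genes tested. The median log2 fold change was 0.48 over the members and -0.04 over all genes. They were 4 MCM subunits (MCM2 1.93, MCM6 1.68, MCM3 1.13, MCM7 0.98), GINS2 (1.31), GINS3 (1.54), MCM10 (0.90), GMNN (1.42), PCNA (1.24), RPA2 (1.06), RPA3 (1.11), POLE3 (1.94), FEN1 (1.47) and UHRF1 (1.12). GINS4 fell (-0.97, SE 0.28, edgeR adjusted p 0.0353), with 34.6 and 31.3 CPM at the PFA lamina against 60.2 and 68.9 in the nucleus. These nuclear libraries are the ones used in the comparison of the fractions.

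MCM2 had 439 and 543 CPM at the PFA lamina (SE 0.31, edgeR adjusted p 0.00612) against 125 and 133 in the nuclear libraries. POLE3 had 183 and 125 CPM (SE 0.32, edgeR adjusted p 0.00642) against 33.5 and 46.9. MCM6, a further helicase subunit, had 242 and 192 CPM (SE 0.34, edgeR adjusted p 0.00951) against 56.8 and 78.5, with 182 and 209 in the cytosolic and 169.7 and 94.0 in the native libraries. PCNA had 198 and 193 CPM at the PFA lamina, above its nuclear 60.2 and 106 and below its cytosolic 237 and 325. In each of these genes both PFA values lay above both nuclear values. Without nuclear replicate 1 no member was called (0), 5 were without nuclear replicate 2, 6 were without PFA replicate 1 and 21 without PFA replicate 2. Summed nuclear RNA markers were lower in PFA replicate 1 than in PFA replicate 2, and their part in the result was not tested.

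Against the cytosolic fraction, 0 members were called at the PFA lamina by edgeR, with 1 higher and 6 lower at an unadjusted p under 0.05, and DESeq2 called 1 (RRM1). Of all 16504 genes tested 0.527% were higher and 0.145% lower by edgeR. At an unadjusted p under 0.05, 2135 of them were higher and 1421 lower, and DESeq2 called 551 higher and 449 lower. The smallest p-values belonged to TYMS (log2 fold change -0.94, edgeR adjusted p 0.125), RRM1 (-0.95, edgeR adjusted p 0.126) and RPA1 (-0.84, edgeR adjusted p 0.148). RRM1 had 186 and 136 CPM at the PFA lamina against 236 and 387 in the cytosol, TYMS 72.3 and 60.7 against 99.7 and 156, and RPA1 137 and 109.6 against 200.1 and 241. In the nuclear and native libraries TYMS had 34.5 and 51.4 and then 68.5 and 52.6 CPM, and RPA1 had 67.4 and 89.7 and then 138 and 86.1. In these 3 genes both PFA values lay below both cytosolic values. Without PFA replicate 1, ORC2, POLD2 and RRM1 were called lower, 3 in all, and without PFA replicate 2 no member was called (0).

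The PFA and native preparations were compared directly. By edgeR 0 members were called, as were 0% of all genes in either direction. At an unadjusted p under 0.05, 7 members were higher and 1 was lower in the PFA libraries, as were 897 and 924 of all genes. DESeq2 called 1 member (RPA2) and 72 genes higher and 181 lower. RPA3 had 30.3 and 28.0 CPM in the PFA and 13.1 and 7.66 in the native libraries (log2 fold change 1.48, SE 0.33, edgeR adjusted p 0.276), and RPA2 had 81.5 and 58.1 against 40.0 and 28.1 (1.04, SE 0.30, edgeR adjusted p 0.313). For both genes the lowest PFA value lay above the highest native value. RFC1 had 117 and 96.4 CPM against 164 and 208 (-0.80, SE 0.27, edgeR adjusted p 0.341), also without overlap. PCLAF was not called either (log2 fold change 0.75, SE 0.38, edgeR adjusted p 0.485), and its lowest PFA value, 14.7, was next to its highest native one, 13.7. Without PFA replicate 2, RPA2, RPA3 and GINS2 were called higher, 3 in all, and without PFA replicate 1 no member was called (0).

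The members that stood at the ends of their roles between the fractions had these levels at the lamina. CDT1 had 169 and 229 CPM in the native and 218 and 242 in the PFA libraries, all above its nuclear and inside its cytosolic range. ORC5 had 16.3 and 8.55 and then 29.9 and 11.4 CPM, and ORC6 had 54.3 and 64.7 and then 70.6 and 44.1. The spread within a pair of replicates was wide for ORC5 in both preparations. MCM5 had 114 and 75.9 CPM at the native and 114 and 152 at the PFA lamina, and MCM3 had 398 and 491 at the PFA lamina. GINS3 had 52.5 and 29.6 and then 73.9 and 51.1 CPM, while GINS4 had 43.6 and 44.2 at the native lamina, between its fractions. RFC2 had 67.9 and 35.4 CPM at the native and 90.9 and 54.4 at the PFA lamina, and RFC3 had 81.9 and 58.3 and then 91.3 and 86.1. RFC2 varied more between replicates than between the preparations. POLA1 had 143 and 123 CPM in the native and 124 and 144 in the PFA libraries, 4 values that all lay between its nuclear and cytosolic ones. PRIM1 had 37.0 and 43.3 and then 36.0 and 32.4 CPM, and POLD2 had 76.4 and 63.8 and then 143 and 75.0. The first PFA value of POLD2 stood near its cytosolic level and the second near its native one. FEN1 had 127 and 88.7 and then 165 and 119.6 CPM, above its nuclear values in all 4 libraries. TK1 had 69.9 and 67.9 CPM at the native and 139 and 114 at the PFA lamina, without overlap. UHRF1 had 82.4 and 69.0 and then 82.8 and 83.9 CPM, above its nuclear values in all 4 libraries.

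Exonic length moved with the values of some comparisons more than with others. Members had between 1180 (GINS2) and 8005 (POLE) exonic bases, with a median of 2726, against 3161 over all genes tested. Across genes, which are not independent replicates and here share the same libraries, the Spearman correlation of length with the log2 fold change of PFA against native lamina was -0.46 over the 49 members and -0.33 over all 16504 genes. The 24 shorter members had a median of 0.49 and the 24 longer ones 0.12 in that comparison. GINS2, the shortest, had 0.99, and POLE, the longest, had -0.45. For native lamina against cytosol the correlation was 0.41 over the members and 0.22 over all genes, with medians of -0.54 over the shorter and -0.17 over the longer members. For nuclear against cytosolic RNA it was 0.27 and 0.07, and for native lamina against the nuclear fraction 0.015 over the members against 0.18 over all genes. For the PFA lamina it was -0.25 and -0.059 against the nuclear and 0.20 and 0.045 against the cytosolic fraction.

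**Figure D5:**
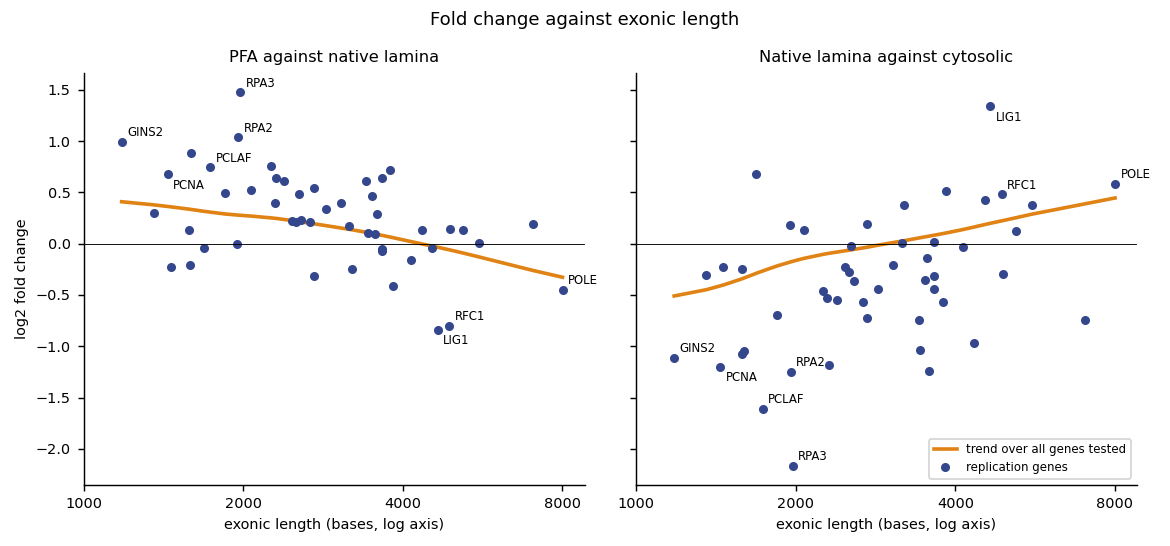
Log2 fold change (y axis) against exonic length in bases (x axis, log scale) for the 49 replication genes, with the lowess trend of all genes tested as a line, for PFA against native lamina and for native lamina against the cytosolic fraction. The members' Spearman correlations with length (-0.46 and 0.41) have the same signs as those over all genes (-0.33 and 0.22) and are larger in size. RPA3 and PCLAF lie well below the trend against the cytosolic fraction.

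After the trend of all genes on length was taken off, the members' medians were -0.71 for nuclear against cytosolic, 0.39 and -0.36 for native lamina against nuclear and cytosolic, 0.45 and -0.18 for the PFA lamina against the same fractions, and 0.14 between the PFA and native lamina. PCLAF has 1734 exonic bases, and the trend at that length was -0.18 against the nuclear and -0.27 against the cytosolic fraction at the native lamina, which leaves -1.17 and -1.34. For RPA3, with 1975 bases, the value against the cytosol went from -2.17 to -1.99. Of the 27 genes below both fractions at the native lamina, 23 were shorter than the median of genes tested, and their median length was 1734, that of PCLAF itself. What part length has in the call of PCLAF was not tested further than by the length offsets above, under which its adjusted p by edgeR was 0.0540.

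Levels of different genes were compared per kilobase of exon. By mean CPM per kilobase (± SD, n = 2), CDC6 was the highest member in the nucleus (73.9 ± 19.1), followed by MCM3 (63.4 ± 12.7) and TK1 (58.3 ± 21.7), and these 3 did not differ beyond their spread. In the cytosol PCNA led (195 ± 43.0), with MCM2 (129 ± 23.6) and MCM3 (127 ± 11.6) close to each other below it. MCM3 led at the native lamina (165 ± 10.6), and MCM2 (140.2 ± 21.0), MCM3 (139 ± 20.5) and PCNA (136 ± 2.79) were level at the PFA lamina. PCLAF stood at 16.8 ± 3.37 in the nucleus, 20.2 ± 7.44 in the cytosol, 6.62 ± 1.82 at the native and 10.9 ± 3.42 at the PFA lamina. The median member stood at 21.8, 33.4, 27.5 and 32.8 CPM per kilobase in these groups, and the median of all genes tested at 6.42, 5.45, 5.94 and 6.02.

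Reads that fall on shared exons bear on a few of the values. Of the 49 genes, 9 share exonic bases with a neighbour, and 2 share over 10% of them: TYMS (62.8%, with ENOSF1 and TYMSOS) and PCNA (26.6%, with PCNA-AS1). Each such read was counted for both genes and strand was ignored, so these values are uncertain. PCNA-AS1, an antisense transcript of 384 exonic bases, had 10.4 and 21.3 CPM in the nuclear and 56.4 and 86.9 in the cytosolic libraries. All 384 bases lie within PCNA exons, so reads of PCNA on them are counted for PCNA-AS1 as well. Its values are therefore no separate measure of an antisense transcript. They did not follow those of PCNA in every group. PCNA-AS1 had 52.9 and 39.3 CPM at the native and 68.9 and 83.9 at the PFA lamina. Its PFA values lay inside its cytosolic range, while PCNA, at 198 and 193 CPM, lay below its cytosolic 237 and 325. What part the shared stretch has in the values of PCNA at the lamina was not tested. ENOSF1 had 92.0 and 88.1 CPM against 71.1 and 114, overlapping between the fractions where TYMS did not. TYMSOS had 2.49 and 9.11 CPM in the nuclear against 11.4 and 18.4 in the cytosolic libraries, lower without overlap, as TYMS was. UMAD1, which shares bases with RPA3, was also lower without overlap (8.09 and 6.53 against 11.8 and 22.4). AP4M1, which shares bases with MCM7, was higher in the nucleus (9.18 and 13.6 against 8.29 and 6.13).

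Another 49 replication genes, which regulate, check or assist the same machinery, were set beside these, and all 49 were tested. Between the fractions 7 rose and 15 fell in the nucleus, or 14.3% and 30.6% against 26.1% and 21.2% of all genes tested, so rises were fewer and falls more frequent than the background. The largest rises were those of ATAD5 (log2 fold change 1.87), which unloads PCNA, CHTF18 (1.63), of an alternative clamp loader, and CLSPN (1.31), claspin of the replication checkpoint. The largest falls were those of CHTF8 (-1.92), a partner of CHTF18, POLE4 (-1.72), the partner of POLE3, and RNASEH2A (-1.51), a subunit of ribonuclease H2. CHTF18 had 130 and 154 CPM in the nucleus against 42.4 and 49.5 in the cytosol, and CHTF8 had 33.8 and 39.2 against 153 and 123. These 2 partners therefore lay on opposite sides, as GINS4 and its partners did.

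At the native lamina CHTF8 and E2F7 (1.17 each) rose and DNA2 (-1.25) fell against the nuclear fraction, 2 higher and 1 lower. These are 4.08% and 2.04%, near the 3.87% and 3.44% of all genes tested. Against the cytosolic fraction 6 of these genes fell, led by POLE4 (-2.03), POLD4 (-1.69), a small subunit of polymerase delta, and RNASEH2A (-1.31), and 0 rose by edgeR (6 at an unadjusted p under 0.05 and 3 by DESeq2). The 6 lower are 12.2%, against 6.77% of all genes tested, of which 6.99% were higher. At the PFA lamina 8 rose against the nuclear fraction, led by CHTF8 (1.76), CDC25A (1.43) and ASF1B (1.35), and 3 fell, ATAD5 (-1.35), DNA2 (-1.25) and NASP (-1.17). These are 16.3% and 6.12%, against 9.63% and 7.81% of all genes tested. Against the cytosolic fraction 0 were called by edgeR (2 higher and 4 lower at an unadjusted p under 0.05, and 1 lower by DESeq2), against 0.527% higher and 0.145% lower of all genes tested. Between the PFA and native lamina 0 were called as well (3 higher and 2 lower unadjusted, and 1 in each direction by DESeq2). The unadjusted and DESeq2 counts over all genes are those given above for the same comparisons.

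The positions of the members were set against the lamina-associated domains of HCT116, a colorectal carcinoma line, deposited as 1 list each for G1, S and G2. PRIM2, the large subunit of primase (hg19 chromosome 6, 57179603 to 57513376), was the 1 member that touched a domain, in G1 and in S, and 0 members touched a domain in G2. That is 2.04%, 2.04% and 0% of the members, against 2.37%, 2.00% and 3.44% of 16316 tested genes. No member lay wholly inside a domain (0 in each stage). PRIM2 was among the genes below all 4 fraction libraries at the native lamina, with 21.6 and 19.4 CPM against 27.5 to 35.8 in the fractions, but it was not called, and the domains come from another cell line.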

How the data were processed

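RNA values are the read counts per gene that the authors deposited for 8 HEK293FT libraries, made with featureCounts 1.5.2 on hg19 with a RefFlat annotation, per the file headers. Those headers show that strand was ignored, that a read over several genes was counted for each, and that multi-mapping reads were not counted. The header of cytosolic replicate 1 carries the output name of nuclear replicate 1 but the cytosolic input, and the library was kept as labelled. TopHat2 2.1.1 and Bowtie2 2.3.2 are named in the submitters' processing notes. Domains are the deposited consensus intervals, without scores, and files of other samples were not used here.

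From the counts, filterByExpr by group kept 16504 genes, which were tested in 1 fit of all 8 libraries with edgeR 4.0.16 (R 4.3.3), TMM factors and the quasi-likelihood test, Benjamini-Hochberg adjusted over all genes in each of 6 comparisons, with calls at an adjusted p under 0.05. Normalised CPM are after TMM scaling. Comparisons with the same fraction share its libraries. Exonic length is the length column of the tables, and trends are lowess fits with a span of 0.3. Total counts of 2321291 to 8557777 limit precision most in PFA replicate 2. The reads carry no molecular identifiers, so duplicates of 1 molecule are counted separately.

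The members and lists were chosen with earlier results of these data known. By rule, values in every library are given for PCLAF and PCNA, for the highest and lowest log2 fold change between the fractions in each role of 4 or more members (in a smaller role, the 1 largest in size), for members called against both fractions and for the 3 smallest p-values in each lamina comparison; of the other replication genes, the 3 largest called changes in each direction are named. Members whose CPM are given beyond this rule (GMNN, LIG1, MCM10, ORC4 and PRIM2) were chosen after their values were seen. Other settings tried were total counts, upper-quartile factors and DESeq2 size factors, no filter, length offsets, the Wald test by DESeq2 1.42.0, the replicate number as a block, only the 4 libraries compared, and each library left out in turn.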

Additional observations from a re-analysis of the deposited data

How the results depend on the processing

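Of 57 member calls, none (0) changed direction in the 16 alternatives run for each, but many were lost in some of them. No call at either lamina preparation was kept in all 16, against 9 of the 27 calls between the fractions. PCLAF between the fractions, not a call, turned to 0.0117 (upper-quartile) and ran from -0.60 to 0.17 with 1 library left out (0.17 without cytosolic replicate 2). Leaving out 1 library gave 12 to 27 calls for nuclear against cytosolic, 0 to 12 for native against nuclear, 0 to 14 for native against cytosolic, 0 to 21 for PFA against nuclear, 0 to 3 for PFA against cytosolic and 0 to 3 for PFA against native. Native against nuclear (7 calls) gave 13 with total counts, 13 with no filter, 11 with DESeq2 and 13 with only the 4 libraries compared. Native against cytosolic (8) gave 5 with total counts, 13 with DESeq2 and 13 with 4 libraries. PFA against nuclear (15) gave 4 with 4 libraries. PFA against cytosolic (0) gave 2 with no filter and 1 with DESeq2, and PFA against native (0) gave 1 with each. Without the filter, the members' length-corrected median was -1.28 between the fractions and 0.60 for native against nuclear. Counting only genes wholly inside domains gave 0 in G1 and 0 in S. The cause of these shifts was not tested.

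Upper-quartile factors shifted all genes by 0.27 between the fractions and raised the share of higher calls among members from 14.8% to 25%. That share went from 85.7% to 100% for native against nuclear with total counts and length offsets, and from 0% to 40% for native against cytosolic with total counts. The members' median minus that of all genes stayed between -0.76 and -0.67 between the fractions.

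Deviations of same-numbered replicates correlated at -0.11 to 0.28, above 0.1 in 3 of 6 pairs of groups, and the labels tie the numbers to no shared batch, so the libraries were not taken as paired. With a replicate block the calls were 27, 10, 12, 19, 0 and 0 in the order above.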
